A study of Mus musculus with 12 samples.

Results

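This report describes 10 genes for G protein-coupled receptors of the numbered Gpr series that sense lipids, protons or metabolites or whose ligand is not settled. They were chosen by symbol, as Gpr18, Gpr34, Gpr35, Gpr65, Gpr84, Gpr132, Gpr141, Gpr160, Gpr171 and Gpr183, out of 55335 genes listed in each library. Earlier results of these data were known at that choice, so counts set beside shares of all genes are description only. Bulk RNA-seq had been made from bone marrow-derived dendritic cells (BMDC), which were grown from mouse bone marrow with GM-CSF for 6 days and, in the methods of the study, selected for the surface protein CD11c. Every library came from C57BL/6 cells of the genotype CreER, a tamoxifen-inducible Cre inserted at Rosa26, with wild-type Ctcf alleles. The study describes a tamoxifen compound as added to delete floxed Ctcf in knockout cells, but not for wild-type cells. That wording does not settle whether the wild-type cultures received the drug, and its effect was not tested. The 4 groups held 3 libraries each. They were untreated cells (WT), cells given lipopolysaccharide (LPS) at 100 ng/ml for 3 h (WTL), cells given JSH-23 at 100 µM for 3 h (WT + JSH23), and cells given LPS after the same JSH-23 pre-treatment (WTL + JSH23). LPS is a bacterial ligand of Toll-like receptor 4, and JSH-23 is a compound that keeps the NF-κB subunit RelA out of the nucleus. The mice were 8 to 12 weeks old and of both sexes, and the labels do not say which animal gave which library or whether cells without JSH-23 received its solvent. The comparisons with JSH-23 therefore include any effect of the solvent. Libraries without JSH-23 were numbered 4 to 6 and those with it 1 to 3, so any difference between these sets in handling cannot be told apart from JSH-23.

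G protein-coupled receptors sit in the cell membrane and, when a ligand binds, change cAMP or calcium signalling inside the cell. Gpr183 (EBI2) binds the oxysterol 7α,25-dihydroxycholesterol and positions dendritic cells and B cells in lymphoid tissue. Gpr84 responds to medium-chain fatty acids, Gpr34 to lysophosphatidylserine, and Gpr18 has been linked to N-arachidonoylglycine and resolvins. Gpr65 (TDAG8) and Gpr132 belong to the proton-sensing family, and Gpr132 also responds to oxidised fatty acids and lysophosphatidylcholine. Gpr35 is activated by kynurenic acid and lysophosphatidic acid species, Gpr171 by the neuropeptide BigLEN, while Gpr160 and Gpr141 have no settled ligand.

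Promoter windows were read from RefSeq sequence of GRCm38.p6, with 250 bases before and 50 bases from the start site on, in the direction of the gene. They were found for 8 of the 10 genes, with a pair of windows for Gpr35, and not for Gpr34 and Gpr171. The windows of the 3 genes that rose with LPS (Gpr183, Gpr84, Gpr18), of 2 genes that fell more than 2-fold (Gpr35, Gpr160) and of Gpr132, which passed no main test, are shown because JSH-23 acts on an NF-κB subunit. Capitals mark matches on either strand to a κB-like pattern (GGGNNNNNCC), an AP-1 pattern (TGANTCA) or an interferon-response-like pattern (GAAANNGAAA).
Gpr183, chr14:121965144-121965443, minus strand: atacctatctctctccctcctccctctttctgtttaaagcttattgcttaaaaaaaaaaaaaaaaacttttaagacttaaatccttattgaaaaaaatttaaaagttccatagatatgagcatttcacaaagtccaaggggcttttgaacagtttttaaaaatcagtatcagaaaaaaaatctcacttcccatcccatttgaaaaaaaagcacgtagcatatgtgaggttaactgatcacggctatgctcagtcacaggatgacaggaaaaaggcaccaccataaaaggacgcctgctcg
Gpr84, chr15:103310389-103310688, minus strand: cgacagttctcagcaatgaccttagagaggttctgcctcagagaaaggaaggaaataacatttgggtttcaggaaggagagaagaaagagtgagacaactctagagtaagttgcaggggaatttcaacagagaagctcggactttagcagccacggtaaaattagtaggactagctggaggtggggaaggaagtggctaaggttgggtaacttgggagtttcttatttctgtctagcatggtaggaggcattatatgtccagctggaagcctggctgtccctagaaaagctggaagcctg
Gpr18, chr14:121915839-121916138, minus strand: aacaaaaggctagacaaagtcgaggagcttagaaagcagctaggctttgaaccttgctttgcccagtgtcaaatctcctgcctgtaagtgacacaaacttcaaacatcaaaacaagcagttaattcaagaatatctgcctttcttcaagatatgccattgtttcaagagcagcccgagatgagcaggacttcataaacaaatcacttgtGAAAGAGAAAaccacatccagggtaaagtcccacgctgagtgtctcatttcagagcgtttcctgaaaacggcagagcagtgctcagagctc
Gpr35, chr1:92978653-92978952, plus strand: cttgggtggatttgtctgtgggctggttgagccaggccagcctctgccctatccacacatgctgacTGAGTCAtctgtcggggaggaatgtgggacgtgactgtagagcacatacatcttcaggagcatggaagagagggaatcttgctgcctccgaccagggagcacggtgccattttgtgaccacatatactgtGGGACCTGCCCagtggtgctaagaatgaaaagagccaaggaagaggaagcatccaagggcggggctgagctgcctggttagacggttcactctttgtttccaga
Gpr160, chr3:30855700-30855999, plus strand: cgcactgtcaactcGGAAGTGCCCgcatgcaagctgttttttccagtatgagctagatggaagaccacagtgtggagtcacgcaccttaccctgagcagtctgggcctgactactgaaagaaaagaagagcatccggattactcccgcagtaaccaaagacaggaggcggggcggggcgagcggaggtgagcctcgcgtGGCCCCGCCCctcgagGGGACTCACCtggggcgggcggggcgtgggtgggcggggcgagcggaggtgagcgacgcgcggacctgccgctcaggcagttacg
Gpr132, chr12:112860867-112861166, minus strand: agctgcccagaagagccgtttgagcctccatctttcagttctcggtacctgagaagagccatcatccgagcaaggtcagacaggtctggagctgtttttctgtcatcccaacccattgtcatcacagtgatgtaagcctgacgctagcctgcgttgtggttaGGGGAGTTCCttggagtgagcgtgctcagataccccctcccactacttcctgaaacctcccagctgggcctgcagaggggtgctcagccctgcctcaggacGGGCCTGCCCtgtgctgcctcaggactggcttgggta
The κB-like letters are in 51.0% of 32544 RefSeq promoter windows of this length, the AP-1 letters in 7.79% and the interferon-response-like letters in 3.45%. None of the 3 patterns is in the windows of Gpr183 or Gpr84, and the Gpr18 window holds only the interferon-response-like one, 41 bases before the start site. Start sites here are those of RefSeq. For Gpr84 this site lies 174 bases downstream of the start in the GENCODE annotation, and for Gpr18 107 bases upstream of it. The κB-like letters occur 3 times in the Gpr160 window, where one match overlaps a GGAA. They occur 2 times in the Gpr132 window and, as 2 overlapping matches on opposite strands, in the Gpr35 window, which also has the AP-1 letters 184 bases before the start. The other window of Gpr35 (chr1:92972869-92973168), which is not shown, holds none of the 3. None of the 3 patterns is in the windows of Gpr65 (chr12:98268385-98268684) or Gpr141 (chr13:19824208-19824507), and the cAMP-response letters TGACGTCA (1.8% of all windows) are in no window of the 8 genes. A match of letters describes the sequence and not the binding of a factor, and enhancers lie outside these windows.

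Total expected counts ran from 24664724 to 34837847 per library, and 14357 genes were tested. WTL + JSH23 replicate 3 stood apart from the other 2 libraries of its group, with a chi-square of 8.19 and 9.12 per gene against 2.32 to 4.50 in every other pair of replicates. All 8 dendritic cell markers were detected in every group, with a summed level of 17400 to 19800 TPM, a level scaled to transcript length and to the whole library. Most of this sum was Cd74 (12600 to 14100 TPM in group means) and H2-Ab1 (3280 to 3900 TPM). Flt3 was the lowest of the list, at 2.42 to 3.2 TPM. The summed macrophage markers lay between 1110 and 1160 TPM in WT, 685 and 744 in WTL, 941 and 970 in WT + JSH23, and 746 and 760 in WTL + JSH23, and their part in the results below was not tested. With LPS, Csf1r, Fcgr1, Cd68 and Mrc1 of this list were lower (log2 -0.76, -0.88, -0.13 and -0.21), while Mertk and Adgre1 were higher (0.86 and 0.25). The 3 plasmacytoid dendritic cell markers summed to 29.3 to 31.9 TPM in WT, 48.7 to 53.5 in WTL, 21.3 to 22.0 in WT + JSH23 and 35.9 to 39.8 in WTL + JSH23, and their part was not tested either. Tcf4 made up most of this sum, and Siglech was at most 0.0333 TPM in a group mean. Neutrophil markers summed to 171 to 226 TPM over all libraries and T cell markers to 2.03 to 6.09, with WT above WTL for the latter. Cd8a made up most of the T cell sum in WT (4.33 TPM) and WTL (1.94 TPM). It was the only marker of that list that passed the filter on low counts. B cell markers summed to at most 0.39 TPM and NK cell markers to at most 0.34 TPM. In bulk RNA, fewer cells of a type and less RNA per cell cannot be told apart.

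In resting cells the RNA of these receptors came mostly from 3 genes. In TPM, the scale on which genes can be compared with each other, Gpr132 led in WT with 181.8 ± 7.94 (SD, n = 3), followed by Gpr141 with 161.8 ± 6.92 and Gpr65 with 105.9 ± 1.90. These made 33.8%, 30.1% and 19.7% of the summed level of the 10 genes. Gpr84 (39.7 TPM), Gpr35 (18.6), Gpr183 (13.6) and Gpr160 (12.95) were intermediate, and Gpr183 and Gpr160 overlapped between libraries. Gpr171 (2.11 TPM), Gpr18 (1.64) and Gpr34 (0.213) were at the bottom of the order.

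The order changed with LPS below Gpr132, which was first in each of the 4 groups. In WTL, Gpr84 (94.4 ± 9.02 TPM) stood beside Gpr141 (90.3 ± 4.76 TPM), and their libraries overlapped. Gpr183 was next at 42.6 TPM, above Gpr65 at 22.75 TPM. In WT + JSH23, Gpr65 (93.25 TPM) stood above Gpr141 (50.2 TPM), and Gpr84 (8.63 TPM) was level with Gpr183 (8.24 TPM), since their libraries overlapped. In WTL + JSH23 Gpr132 alone made 53.7% of the summed level.

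**Figure D1:**
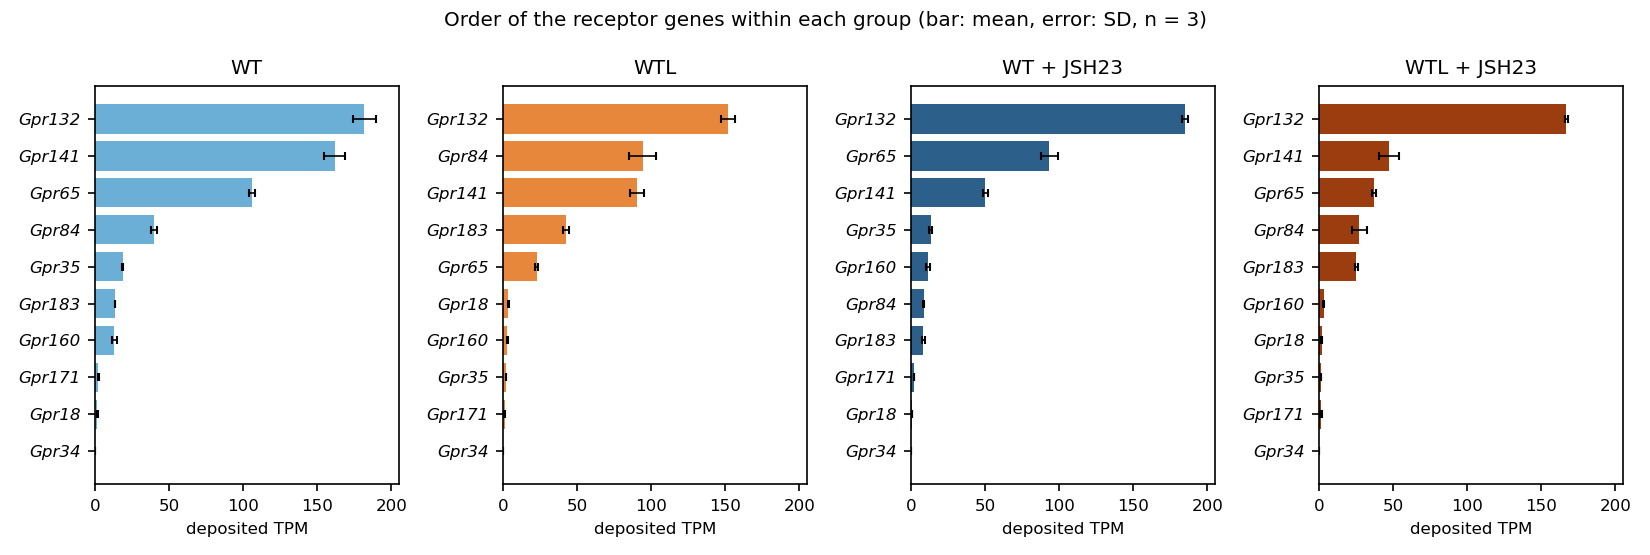
Horizontal bars give the mean deposited TPM of each of the 10 receptor genes in each group, with the SD over 3 libraries, ordered from high to low within the group. Gpr132 leads every panel, and Gpr84 moves up from 39.7 TPM in WT to the place next to Gpr132 in WTL (94.4 TPM).

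The summed level of the 10 genes was 535.6 to 541.1 TPM in WT, 397.0 to 427.5 in WTL, 362.3 to 386.4 in WT + JSH23 and 297.9 to 321.2 in WTL + JSH23. No pair of groups overlapped in this sum. TPM values depend on all other RNA of the library, and the changes below were therefore tested on counts with the quasi-likelihood test of edgeR after TMM scaling of the libraries. Levels of one gene across groups are given as CPM, which are counts relative to the TMM-scaled library size.

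LPS alone raised Gpr183, Gpr84 and Gpr18 and lowered Gpr35, Gpr160 and Gpr65, all by more than 2-fold, and lowered Gpr171 and Gpr141 by less. Of the 9 receptor genes tested, 8 passed an adjusted p of 0.05 in WTL against WT, beside 65.7% of all genes, and 6 also changed more than 2-fold, beside 16.4% of all genes. After JSH-23 the same 6 genes changed more than 2-fold in the same directions, beside 10.3% of all genes, and these 6 were all that passed, beside 54.5%. Without WTL + JSH23 replicate 3, Gpr171 (log2 fold change -0.73) and Gpr141 (0.21) passed as well, making 8. Gpr132 passed in neither comparison, and Gpr34 was too low to be tested. The median log2 fold change of the 9 genes was -0.43 without and 0.06 with JSH-23, and that of all genes -0.05 and -0.02.

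JSH-23 itself mostly went with lower receptor RNA. Under LPS, Gpr84, Gpr18 and Gpr141 were lower by more than 2-fold, Gpr183 and Gpr35 by less, and Gpr65 was higher, so that 6 genes passed, beside 48.7% of all genes, and 3 passed with more than 2-fold, beside 7.0%. Without LPS, Gpr84, Gpr141, Gpr18, Gpr183, Gpr35 and Gpr65 were lower, 6 genes beside 22.1% of all genes called lower and 41.0% called in either direction, and 3 of them by more than 2-fold, beside 5.37%. The median log2 fold change of the 9 genes was -0.55 under LPS and -0.52 without, against 0.02 and -0.01 over all genes. These comparisons share WTL or WT libraries with the LPS comparisons, so the values are given side by side and not as separate evidence.

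**Figure D2:**
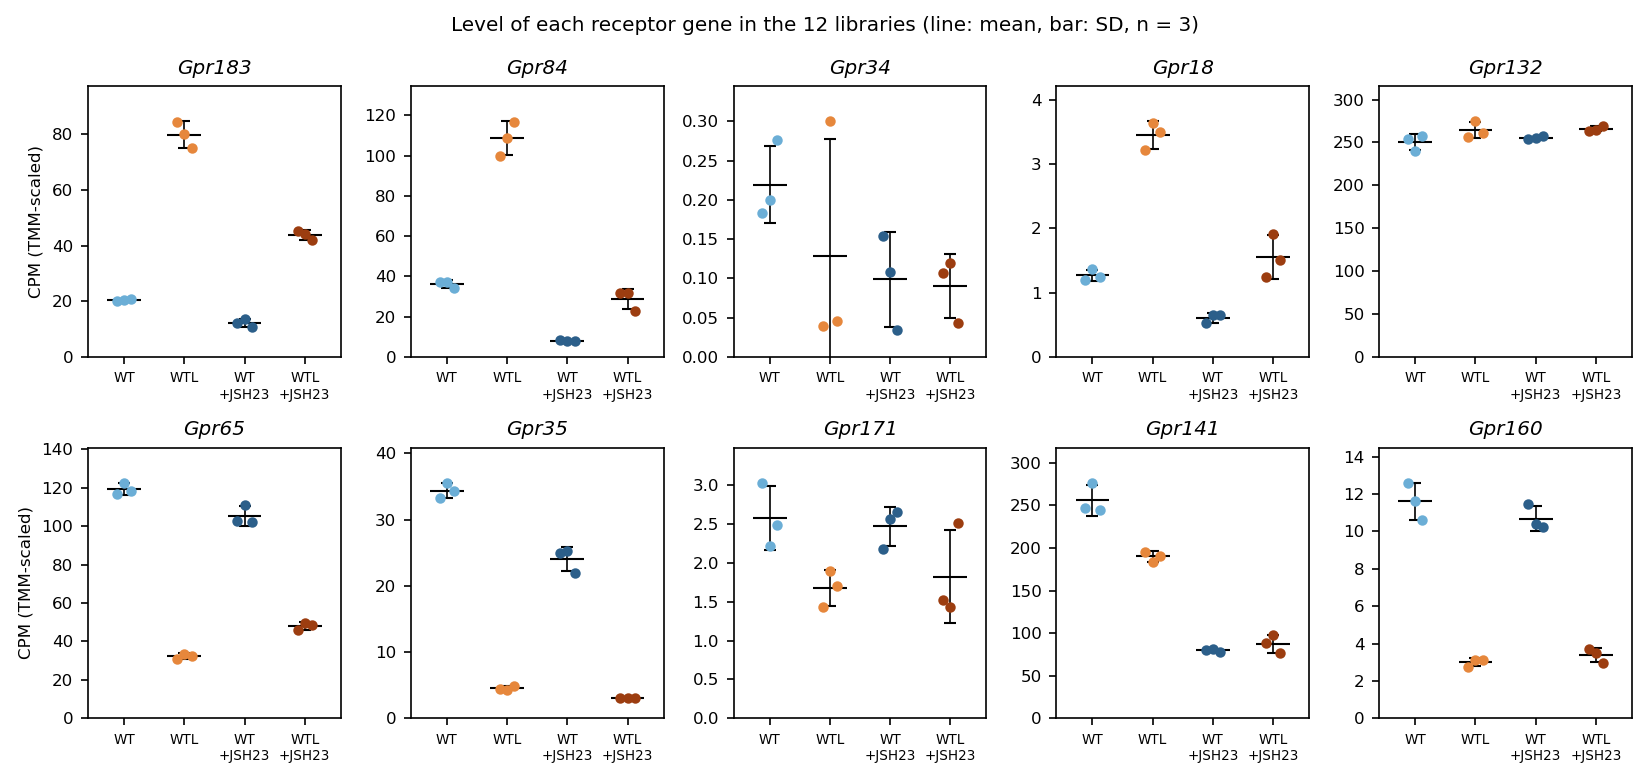
Each panel shows one receptor gene, with the CPM of every library as a point, the group mean as a line and the SD as a bar (n = 3), on axes that start at 0. Gpr183, Gpr84 and Gpr18 are highest in WTL, Gpr65, Gpr35 and Gpr160 are highest in the groups without LPS, and Gpr132 lies between 240.1 and 274.6 CPM throughout.

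**Figure D3:**
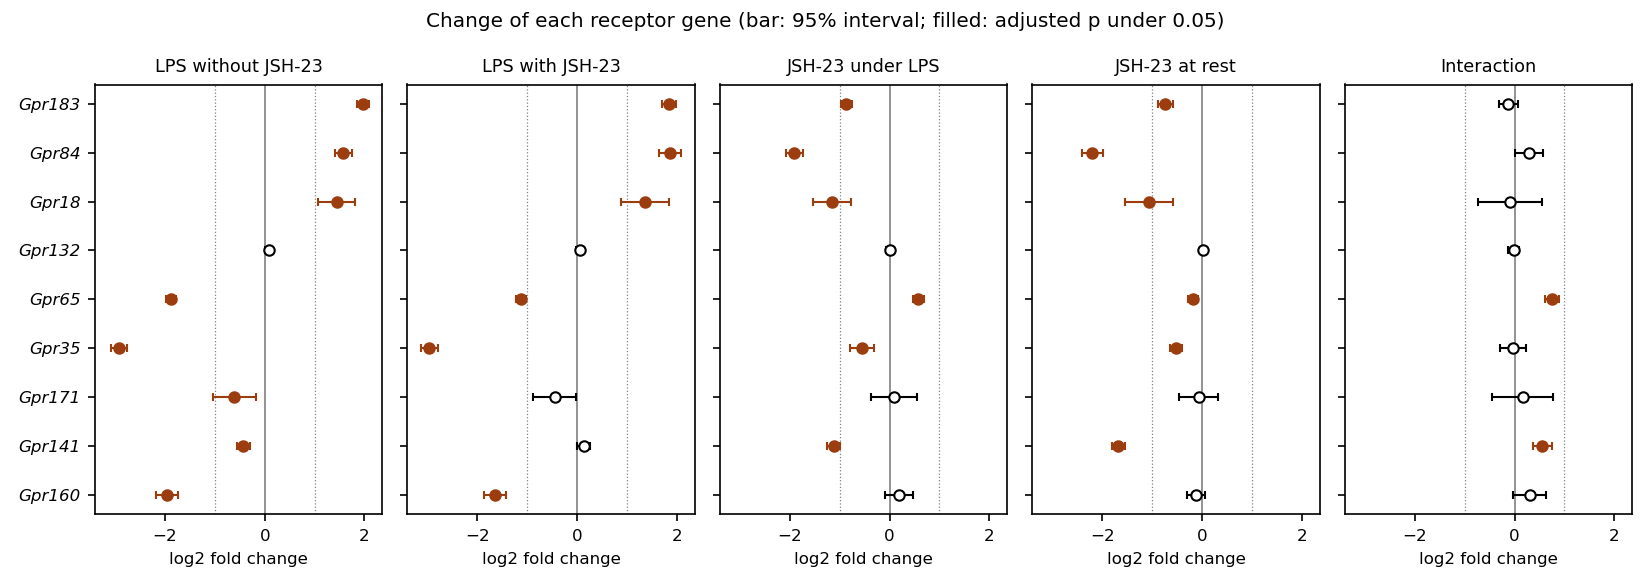
Points give the log2 fold change of the 9 tested receptor genes in each comparison and in the interaction, bars give 95% intervals, filled points passed an adjusted p of 0.05, and dotted lines mark a 2-fold change. In the interaction panel only Gpr65 (0.76) and Gpr141 (0.56) are filled.

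Gpr183, the oxysterol receptor, is on the minus strand of chromosome 14 (121952551 to 121965195, GRCm38). It was at 20.4 ± 0.378 CPM (SD, n = 3) in WT, at 84.6, 80.2 and 75.1 in WTL, at 12.3, 13.6 and 10.9 in WT + JSH23, and at 45.4, 44.0 and 42.1 in WTL + JSH23. No groups overlapped, and the order of the levels was WTL, WTL + JSH23, WT and WT + JSH23. LPS raised it 3.92-fold (log2 1.97, SE 0.0597, adjusted p = 3.04e-17, edgeR quasi-likelihood test with Benjamini-Hochberg adjustment). After JSH-23 the log2 fold change was 1.84 (SE 0.0673, adjusted p = 1.43e-15). The fold was thus kept on a lower level, as JSH-23 lowered Gpr183 by 1.82-fold under LPS (log2 -0.87, SE 0.0562, adjusted p = 3.58e-11) and by 1.67-fold without it (log2 -0.74, SE 0.0714, adjusted p = 2.37e-08). The difference of the LPS responses was -0.13 with a 95% interval of -0.32 to 0.06 (adjusted p = 0.386).

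Of 5 enzymes that make or break down the oxysterol ligands of Gpr183, 3 were tested. Ch25h, which adds the 25-hydroxyl group to cholesterol, rose with LPS from 21.3 ± 1.06 to 91.0 ± 0.720 CPM (log2 fold change 2.10, adjusted p = 2.80e-16) and was lower with JSH-23 under LPS, at 25.4 ± 4.27 CPM (log2 -1.84, adjusted p = 1.44e-14). Hsd3b7, which converts 7α-hydroxylated oxysterols further, was slightly lower with LPS (log2 -0.15, adjusted p = 0.0327) and was higher with JSH-23 under LPS (log2 0.85, adjusted p = 1.16e-10). Cyp27a1, a sterol 27-hydroxylase, fell with LPS (log2 -1.03, adjusted p = 4.96e-08). The receptor and Ch25h thus both had their highest level in WTL. The median of the 3 genes with LPS was -0.15, against -0.05 over all genes, and Cyp7b1 and Cyp46a1 did not pass the filter on low counts.

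Gpr84, the receptor for medium-chain fatty acids (chromosome 15, 103308235 to 103310612, minus strand), had the largest change with JSH-23 among the receptor genes. Its level was 37.4, 37.2 and 34.1 CPM in WT and 99.8, 109.0 and 116.8 in WTL. With JSH-23 it was 8.11, 7.81 and 7.76 CPM without LPS and 31.6, 31.6 and 22.7 with it. All WTL + JSH23 libraries lay below the lowest WT library. LPS raised Gpr84 by 2.99-fold without JSH-23 (log2 1.58, SE 0.0787, adjusted p = 1.49e-13) and by 3.64-fold with it (log2 1.86, SE 0.107, adjusted p = 3.10e-12). JSH-23 lowered it by 3.77-fold under LPS (log2 -1.91, SE 0.0825, adjusted p = 5.87e-14) and by 4.59-fold without LPS (log2 -2.20, SE 0.103, adjusted p = 3.15e-13). In CPM the rise with LPS was 72.3 without and 20.75 with JSH-23, while the folds were close. The interaction of 0.28 (95% interval 0.00 to 0.57) did not pass (adjusted p = 0.160), but it passed without WTL + JSH23 replicate 3 (0.42, adjusted p = 0.00314), the lowest library of its group for this gene.

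Reads of Gpr84 could be confused with those of Gm49482, an antisense gene that covers 681 bases, or 39.5%, of its exons. Expected counts of Gpr84 were fractional in 9 of the 12 libraries. Gm49482 itself was at 0.842 ± 1.09 CPM in WT, 1.58 ± 1.84 in WTL, 0.694 ± 0.0587 in WT + JSH23 and 1.09 ± 0.836 in WTL + JSH23. It was listed at 0 in the replicates 4 of WT and WTL and passed in no comparison. How many antisense reads were counted for Gpr84 was not tested.

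Gpr18 (chromosome 14, 121911253 to 121915781, minus strand) was also highest in WTL and lowest in WT + JSH23, at a much lower level than Gpr84. It had 39, 48 and 36 counts in WT, 83, 109 and 76 in WTL, 17, 18 and 19 in WT + JSH23, and 35, 48 and 35 in WTL + JSH23. In CPM this was 1.27 ± 0.0892, 3.45 ± 0.213, 0.607 ± 0.0731 and 1.55 ± 0.337. Only WT and WTL + JSH23 overlapped. The log2 fold change with LPS was 1.44 (SE 0.181, adjusted p = 4.93e-07) without JSH-23 and 1.35 (SE 0.231, adjusted p = 4.04e-05) with it. With JSH-23 Gpr18 was lower by 1.16 on the log2 scale under LPS (SE 0.183, adjusted p = 1.88e-05) and by 1.07 without it (SE 0.230, adjusted p = 0.000718). At this depth the interaction of -0.09 had a wide 95% interval, from -0.74 to 0.56.

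Gpr34, the lysophosphatidylserine receptor on chromosome X (13632089 to 13640858, plus strand), had 1 to 9 counts in every library. Its level was at most 0.300 CPM, and all neighbouring groups in the order of levels overlapped. The WT libraries (0.184, 0.199 and 0.276 CPM) lay above those of WT + JSH23 (at most 0.154) and WTL + JSH23 (at most 0.119). Gpr34 did not pass the filter on low counts, so these differences were not tested in the main fit. Pla1a, which releases lysophosphatidylserine from phosphatidylserine, rose with LPS from 3.85 ± 0.294 to 22.6 ± 2.73 CPM (log2 fold change 2.56, adjusted p = 1.55e-14). It led the 15 enzymes of lysophospholipid turnover, of which 8 were higher, 3 lower and 4 did not pass with LPS, beside 31.0% of all genes higher and 34.7% lower, with a median of 0.35 against -0.05 over all genes. Under LPS, Plpp3, a lipid phosphate phosphatase, was higher with JSH-23 (log2 1.04, adjusted p = 2.95e-12), and Lpcat2, which re-acylates lysophospholipids, was lower (log2 -0.82, adjusted p = 1.21e-10).

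Gpr65, the proton sensor TDAG8 (chromosome 12, 98268635 to 98276644, plus strand), was the receptor gene whose response to LPS differed most between cells with and without JSH-23. It was at 116.8, 122.6 and 118.1 CPM in WT and at 30.65, 33.6 and 32.55 in WTL. With JSH-23 it was at 102.5, 111.2 and 102.0 CPM without LPS and at 46.0, 49.9 and 48.6 with it. No groups overlapped, and WTL was the lowest. The fall with LPS was 3.69-fold without JSH-23 (log2 -1.88, SE 0.0498, adjusted p = 3.31e-18) and 2.19-fold with it (log2 -1.13, SE 0.0480, adjusted p = 1.99e-14). The interaction of 0.76 (SE 0.0692, adjusted p = 2.52e-07) passed and lay between 0.72 and 0.80 when each library was left out in turn. JSH-23 raised Gpr65 under LPS by 1.49-fold (log2 0.58, SE 0.0529, adjusted p = 8.75e-09) and lowered it without LPS by 1.13-fold (log2 -0.18, SE 0.0446, adjusted p = 0.00243). An antisense gene, Gm47566, covers 511 bases of its exons and was listed at 0 in every library.

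Gpr132 (chromosome 12, 112850873 to 112868228, minus strand), the other lysolipid and proton receptor, was the most abundant and the steadiest. It was at 253.8, 240.1 and 257.5 CPM in WT, 256.7, 274.6 and 260.8 in WTL, 253.9, 254.8 and 257.0 in WT + JSH23, and 263.6, 264.7 and 269.2 in WTL + JSH23. All neighbouring groups in the order of levels overlapped. WTL + JSH23 lay above WT + JSH23 without overlap, but the log2 fold change of 0.06 did not pass (adjusted p = 0.195). With LPS alone it was 0.08 with a 95% interval of -0.001 to 0.155 (adjusted p = 0.0756). The direction depended on the scaling, since limma on log2(TPM + 1) gave -0.26 (adjusted p = 3.90e-05), where the median of all genes was also -0.26. Relative to that median Gpr132 was at 0.00. With DESeq2 the value was 0.11 and passed (adjusted p = 0.00693). With JSH-23 it was 0.01 under LPS (95% interval -0.07 to 0.09, adjusted p = 0.864) and 0.03 without LPS (95% interval -0.05 to 0.11, adjusted p = 0.602).

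Gpr35, the receptor linked to kynurenic acid (chromosome 1, 92950865 to 92986391, plus strand), had the largest fall with LPS. It was at 33.3, 35.6 and 34.3 CPM in WT and at 4.49, 4.23 and 4.88 in WTL. With JSH-23 it was at 25.0, 25.25 and 21.9 CPM without LPS and at 3.05, 3.10 and 3.11 with it. The groups with LPS were far below those without, and no groups overlapped. LPS lowered Gpr35 by 7.63-fold without JSH-23 (log2 -2.93, SE 0.0767, adjusted p = 2.83e-18) and by 7.79-fold with it (log2 -2.96, SE 0.0861, adjusted p = 3.17e-17), and the interaction was -0.03 (95% interval -0.30 to 0.24). JSH-23 lowered it by 1.46-fold under LPS (log2 -0.55, SE 0.115, adjusted p = 0.000463) and by 1.43-fold without LPS (log2 -0.52, SE 0.0582, adjusted p = 2.56e-07). The call under LPS was lost with limma on log2(TPM + 1), at -0.17 (adjusted p = 0.0971), and kept with limma on log2(TPM + 0.1). The cause was not tested.

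The files list 6 transcripts of Gpr35, between 246 and 4214 bases long, and a mean transcript length per library that RSEM weights by abundance. This length was 3204.3 to 3270.9 bases in WT, 3280.0 to 3663.9 in WTL, 3148.3 to 3201.0 in WT + JSH23 and 2988.3 to 3183.6 in WTL + JSH23. WTL lay above WT and above WTL + JSH23 without overlap, and WT + JSH23 lay below WT without overlap. The length rests on 106 to 127 counts per library in WTL, 994 to 1250 in WT and 644 to 814 in WT + JSH23. The smallest exact permutation p for 3 against 3 libraries is 0.10. The transcript of 4214 bases is the longest and starts 19 bases from the start site of the second RefSeq window, the one shown above.

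Enzymes of the kynurenine pathway, one source of Gpr35 ligands, moved in both directions. Of 8 tested of 10, LPS raised 3 and lowered 3, beside 65.7% of all genes called in either direction, with a median of 0.11 against -0.05 over all genes. Ido2, a tryptophan-degrading enzyme, rose from 7.37 ± 0.465 to 19.6 ± 1.11 CPM (log2 1.41, adjusted p = 1.76e-11), while Haao and Afmid, which act further along the pathway, fell (log2 -1.22 and -1.06, adjusted p = 9.75e-10 and 1.99e-08). With JSH-23 under LPS, 5 were lower and 1 higher, beside 24.2% of all genes lower and 24.5% higher, with a median of -0.82 against 0.02 over all genes. Ido2 (log2 -2.16, adjusted p = 3.35e-13) and Kynu, which cleaves kynurenine (log2 -0.97, adjusted p = 6.76e-14), were lower, and Afmid was higher (log2 1.10, adjusted p = 3.43e-08).

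Gpr141, an orphan receptor (chromosome 13, 19749682 to 19824257, minus strand), depended more on JSH-23 than on LPS. It was at 246.3, 276.4 and 244.4 CPM in WT, at 195.7, 183.4 and 190.8 in WTL, at 80.1, 81.8 and 77.8 in WT + JSH23, and at 88.3, 97.2 and 76.3 in WTL + JSH23. Every library with JSH-23 lay below every library without it, and the groups with JSH-23 overlapped each other. JSH-23 lowered Gpr141 by 3.20-fold without LPS (log2 -1.68, SE 0.0630, adjusted p = 1.02e-14) and by 2.17-fold under LPS (log2 -1.12, SE 0.0635, adjusted p = 4.14e-12). LPS lowered it by 1.35-fold in the absence of JSH-23 (log2 -0.43, SE 0.0602, adjusted p = 2.18e-06). With JSH-23 the LPS change was 0.13 (SE 0.0651, adjusted p = 0.102), and 0.21 with an adjusted p of 0.00222 when WTL + JSH23 replicate 3 was left out. The interaction was 0.56 (SE 0.0886, adjusted p = 0.00015), and 0.475 to 0.64 when each library was left out in turn. The mean transcript length of Gpr141 was 2759.4 to 2859.0 bases in WT and 2875.5 to 3055.1 in WTL, without overlap.

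Gpr160 (chromosome 3, 30855950 to 30897192, plus strand), for which a peptide ligand has been proposed, fell with LPS and did not pass with JSH-23. It was at 12.6, 11.6 and 10.6 CPM in WT, 2.75, 3.13 and 3.13 in WTL, 11.5, 10.4 and 10.2 in WT + JSH23, and 3.72, 3.50 and 2.98 in WTL + JSH23. The groups with LPS lay below those without, and within each pair the libraries overlapped. LPS lowered it by 3.87-fold (log2 -1.95, SE 0.106, adjusted p = 7.05e-13) without and by 3.13-fold (log2 -1.64, SE 0.106, adjusted p = 1.93e-11) with JSH-23. JSH-23 gave 0.19 under LPS (95% interval -0.09 to 0.46, adjusted p = 0.261) and -0.12 without LPS (95% interval -0.30 to 0.06, adjusted p = 0.286).

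Gpr171 (chromosome 3, 59096448 to 59101821, minus strand), the BigLEN receptor, had 36 to 99 counts per library. It was at 3.03, 2.22 and 2.48 CPM in WT, 1.43, 1.90 and 1.70 in WTL, 2.18, 2.57 and 2.66 in WT + JSH23, and 1.52, 1.43 and 2.51 in WTL + JSH23. WTL lay below WT, while all neighbouring groups in the order of levels overlapped. The fall with LPS was 1.53-fold (log2 -0.61, SE 0.204, adjusted p = 0.0125), and it did not pass without WT replicate 4 (-0.48, adjusted p = 0.0745) or WTL replicate 4 (-0.505, adjusted p = 0.0637). After JSH-23 the value was -0.45 (adjusted p = 0.0709), and -0.73 with an adjusted p of 0.00529 without WTL + JSH23 replicate 3. It also passed in edgeR with upper quartile scaling (-0.534, adjusted p = 0.0312). With limma on log2(TPM + 1) and log2(TPM + 0.1) it passed at -0.412 and -0.645 (adjusted p = 0.0162 and 0.0202). The median of all genes was -0.102, -0.163 and -0.208 in these 3 settings.

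Whether JSH-23 altered the LPS response of a receptor gene was tested as the interaction, the LPS change with JSH-23 minus that without it. It passed for 2 of 9 genes, Gpr65 and Gpr141, beside 18.0% of all genes, and both values were positive, with Gpr84 as a further gene when WTL + JSH23 replicate 3 was left out. For Gpr65 the fall was smaller after JSH-23. For Gpr141 the fall seen without JSH-23 was not seen with it, at a level that JSH-23 had already lowered. Of the other 7 genes, the unadjusted 95% interval included 0 for all but Gpr84 (0.002 to 0.566). The intervals were narrowest for Gpr132 (-0.13 to 0.09) and widest for Gpr18 and Gpr171 (-0.45 to 0.77 for the latter).

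**Figure D4:**
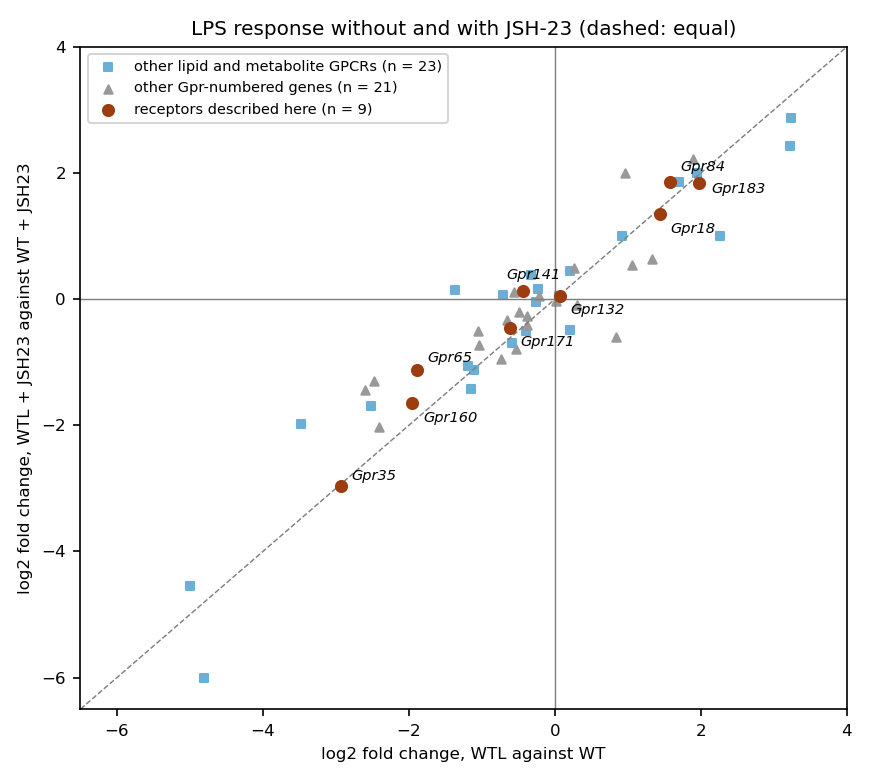
The log2 fold change with LPS after JSH-23 is plotted against that without it, for the 9 receptor genes (circles), 23 other lipid and metabolite receptors (squares) and 21 other Gpr-numbered genes (triangles), and the dashed line marks equal responses. Gpr183, Gpr84, Gpr18 and Gpr35 lie close to the line, and Gpr65 lies above it at -1.88 and -1.13.

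Several of the receptor genes lie inside or beside other genes, some of which moved the other way with LPS. Gpr183 and Gpr18, 36770 bases apart on the same strand, both lie within Ubac2 on the opposite strand, with no exonic overlap. Ubac2 fell with LPS (log2 -0.45, adjusted p = 1.99e-06) while both receptor genes rose. Zfp385a, 3283 bases from Gpr84, also fell with LPS (log2 -1.30, adjusted p = 1.51e-15). Gpr171 lies within Med12l, which fell with LPS as Gpr171 did (log2 -0.43, adjusted p = 0.0236). It is also 12034 bases from P2ry14, the UDP-glucose receptor, which rose with LPS (log2 0.48, adjusted p = 2.05e-08) and was lower with JSH-23 under LPS (log2 -1.30, adjusted p = 1.48e-14).

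Gpr65 and its neighbour Galc changed in the same direction with LPS and with JSH-23 under LPS, but not with JSH-23 in resting cells. Galc, 9176 bases away, encodes galactosylceramidase, which breaks down galactosylceramide and psychosine. It fell with LPS from 56.7 ± 3.04 to 19.7 ± 2.68 CPM (log2 -1.53, SE 0.0664, adjusted p = 1.33e-14), and from 60.2 ± 1.55 to 28.6 ± 0.393 CPM after JSH-23 (log2 -1.07, SE 0.0633, adjusted p = 4.58e-12). Its interaction was 0.46 (SE 0.0924, adjusted p = 0.0014), in the direction of that of Gpr65. Under LPS, Galc was higher with JSH-23 by 0.55 on the log2 scale (SE 0.0718, adjusted p = 1.61e-06). Without LPS it was at 0.09 with JSH-23 (SE 0.0581, adjusted p = 0.257), where Gpr65 was lower (log2 -0.18, adjusted p = 0.00243).

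**Figure D5:**
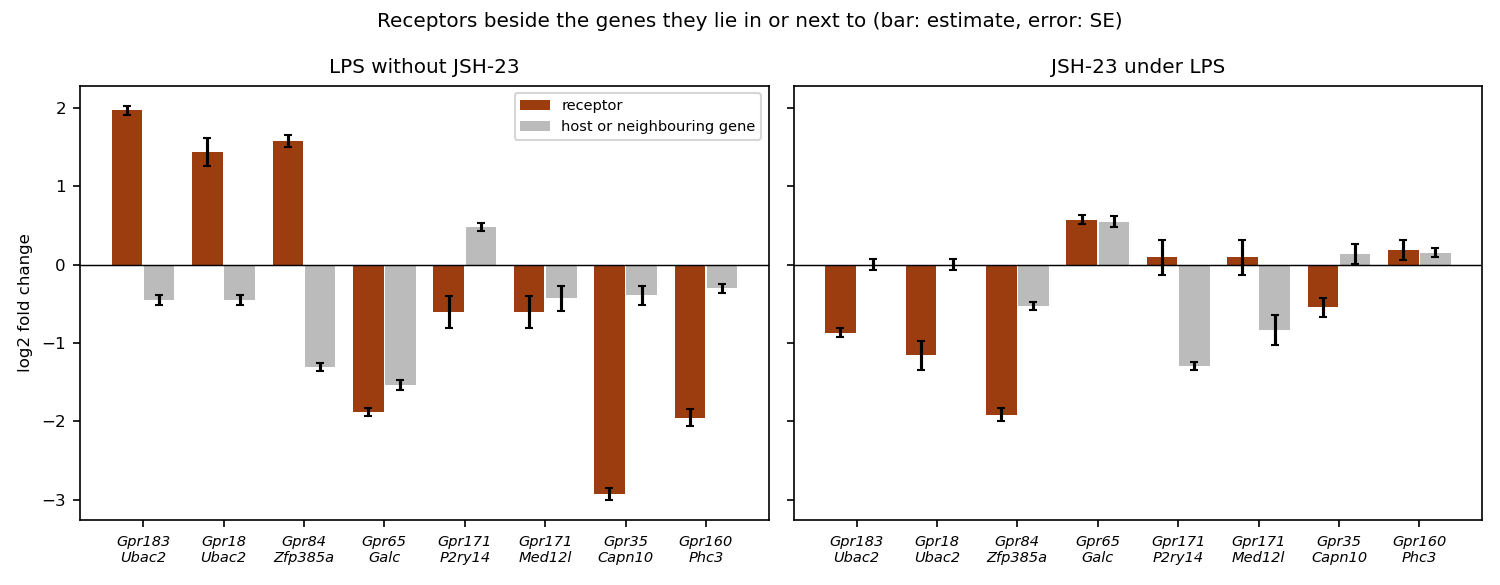
Bars give the log2 fold change of receptor genes (red) and of a gene each lies in or next to (grey), with the SE, for LPS without JSH-23 on the left and JSH-23 under LPS on the right. Gpr183, Gpr18 and Gpr84 rise with LPS where Ubac2 (-0.45) and Zfp385a (-1.30) fall, and Gpr65 and Galc change in the same direction in both panels.

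Other lipid and metabolite receptors were followed as a list. Of 37 listed, 23 were tested, and with LPS 7 were higher and 10 lower, beside 31.0% of all genes higher and 34.7% lower, with a median of -0.33 against -0.05 over all genes. Hcar2, the receptor for niacin and ketone bodies, rose from 7.01 ± 0.222 to 66.4 ± 2.60 CPM (log2 3.24, adjusted p = 1.79e-18). Lpar6, a lysophosphatidic acid receptor, fell from 62.6 ± 2.17 to 1.97 ± 0.467 CPM (log2 -4.99, adjusted p = 4.98e-20), and Cnr2, the peripheral cannabinoid receptor, fell as well (log2 -3.48, adjusted p = 9.67e-13). Under LPS, JSH-23 lowered Hcar2 (log2 -1.25, adjusted p = 3.71e-12) and Cysltr1, a leukotriene receptor (log2 -2.07, adjusted p = 2.67e-11), and raised Ptger2, a prostaglandin E2 receptor (log2 2.06, adjusted p = 6.27e-12). Of the 23, 8 were lower and 5 higher with JSH-23 under LPS, beside 48.7% of all genes in either direction, with a median of -0.04 against 0.02.

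Signalling genes downstream of these receptors were followed as a further list. Of 34 tested genes for G proteins, their regulators and arrestins, LPS raised 14 and lowered 13, beside 65.7% of all genes called, with a median of 0.03 against -0.05 over all genes. Rgs1, which shortens Gi signalling, rose from 173.7 ± 3.95 to 632.8 ± 27.0 CPM (log2 1.87, adjusted p = 1.67e-18). Arrb1 (β-arrestin 1) fell from 356.8 ± 6.83 to 141.8 ± 9.89 CPM (log2 -1.33, adjusted p = 4.20e-15), and Gna15, a Gq-class subunit, fell to 5.67 ± 0.473 CPM (log2 -1.54, adjusted p = 6.96e-12). With JSH-23 under LPS 14 were lower and 7 higher, beside 48.7% of all genes called, with a median of -0.12 against 0.02, and the regulators Rgs14 (log2 -1.37, adjusted p = 2.61e-11) and Rgs2 (log2 -1.27, adjusted p = 5.51e-11) were among the lower ones.

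For each tested receptor gene, the most similar protein-coding genes were sought over the 12 libraries by Pearson r of log2 CPM, among 9034 genes, as a description in which all genes share the same libraries and group differences. The closest was Rin3 for Gpr183 (r = 0.997), Slc39a1 for Gpr84 (0.998), Apobr for Gpr18 (0.992), Crat for Gpr65 (0.997), Il6ra for Gpr35 (0.997), Itpr1 for Gpr141 (0.992) and Setdb1 for Gpr160 (0.997). For Gpr65 the next was Cpt1a (0.997), so that the closest pair encodes carnitine acyltransferases. The likeness was weaker for Gpr132 (Vps28, 0.896) and Gpr171 (Wdr46, 0.946). Pearson r leaves out the size of a change. Slc39a1 ran from 122 to 200 CPM over the libraries, where Gpr84 ran from 7.76 to 116.8 CPM. Among the receptor genes themselves, r was 0.972 between Gpr160 and Gpr65, 0.958 between Gpr18 and Gpr84 and -0.937 between Gpr183 and Gpr65.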

How the data were processed

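RNA-seq of 12 BMDC libraries was used. The authors trimmed paired reads with Trim Galore, aligned them to mm10 with STAR (2.6.0c in the submitters' processing notes) and quantified genes with RSEM. The deposited expected counts are estimated read pairs per gene, shared between genes where reads fit several, and were rounded to whole numbers. The deposited TPM values are the same estimates scaled by the authors to effective transcript length and to one total. The strand setting is not given in the sources used here, and the labels (rRNA depletion) and the methods (stranded polyA kit) differ, so reads of antisense partners may be mixed. Symbols and positions came from GENCODE release M21 (GRCm38), which held 55154 of 55335 identifiers.

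filterByExpr of edgeR 4.0.16 (R 4.3.3) left 14357 genes. A quasi-likelihood test with TMM scaling was fitted to all 12 libraries with a mean per group (8 residual degrees of freedom), with Benjamini-Hochberg adjustment over every gene in the fit. Depth was 24664724 to 34837847 counts per library. The code was tested on simulated data. P-values set a group difference against the spread between libraries. The methods of the study call the replicates biological. As the animal behind each library is not given, this spread may still be technical. Intervals are 95%.

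The members and gene lists were chosen with earlier results of these data known. From each list, the genes named came from up to 3 passing genes with the largest change and at least 5 CPM in the higher group. Not all of these are printed, among them Lpcat4, Pla2g6 and Gpr155. Neighbours were also named, as were genes from the 2 most similar ones. Alternatives were DESeq2 1.42.0, its size factors, upper quartile scaling, other filters, limma 3.58.1 on log2(TPM + 1) or log2(TPM + 0.1), a fit of only the groups compared, a replicate block and leaving out each library.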

Additional observations from a re-analysis of the deposited data

Results flagged for a closer look

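By the test of the interaction, 2 of 9 receptor genes responded to LPS differently after JSH-23, beside 18.0% of all genes. The interaction was 0.76 for Gpr65 (SE 0.0692, adjusted p = 2.52e-07, edgeR), where the fall with LPS was 3.69-fold without and 2.19-fold with JSH-23. It was 0.56 for Gpr141 (SE 0.0886, adjusted p = 0.00015), whose LPS change was -0.43 without and 0.13 with JSH-23.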

How the results depend on the processing

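The number of receptor genes that passed was 7 to 9 for LPS without JSH-23, 6 to 8 for LPS with it, 6 to 7 for JSH-23 under LPS, 6 for JSH-23 without LPS and 2 to 3 for the interaction over all alternatives. With limma on log2(TPM + 1), JSH-23 under LPS changed 1 gene by more than 2-fold in place of 3. Of 918 values for single receptor genes, 875 kept their direction and their side of the threshold. Those that changed direction had not passed the main test. For Gpr132 and LPS they were -0.005 (without JSH-23) and -0.026 (with it) under upper quartile scaling, -0.256 and -0.145 with limma on log2(TPM + 1), and -0.257 and -0.145 on log2(TPM + 0.1). These limma values all passed (adjusted p at most 0.00452). The median of all genes was -0.129, -0.26 and -0.349 without JSH-23 in those settings, against -0.047. Gpr132 with JSH-23 under LPS was -0.015 with DESeq2 and with its size factors. With limma on log2(TPM + 1) and log2(TPM + 0.1) it was 0.135 and 0.136 and passed (adjusted p = 0.00827 and 0.00857). The median of all genes was 0.097 and 0.134 there. On log2(TPM + 1) and log2(TPM + 0.1) the interaction of Gpr132 was 0.111 and 0.112, that of Gpr35 0.287 and 0.225, and Gpr141 with LPS after JSH-23 -0.099 and -0.101. Unfiltered, the interaction of Gpr84 (0.29, adjusted p = 0.0211) and the LPS change of Gpr141 after JSH-23 (adjusted p = 0.0348) passed. The cause was not tested.

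Leaving out each library in turn, signs changed for Gpr132 (JSH-23 under LPS -0.011 to 0.039, without LPS -0.003 to 0.048, interaction -0.038 to 0.012), Gpr171 (-0.186 to 0.236, -0.167 to 0.07 and -0.123 to 0.299 in the same order) and the interactions of Gpr18 (-0.267 to 0.062) and Gpr35 (-0.093 to 0.018). The single values of the other sign were -0.011, -0.003, 0.012 and 0.011 for Gpr132, -0.008, -0.186, 0.07, 0.022 and -0.123 for Gpr171, 0.062 for Gpr18, and 0.018 and 0.004 for Gpr35. Gpr132 with LPS passed without WTL replicate 4 (0.098, adjusted p = 0.0494).

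Replicate numbers were shared by WT and WTL and by the JSH-23 groups. Deviations of same-numbered libraries correlated by 0.014 to 0.061, and those of different numbers by -0.056 to 0.035. Every WT and WTL library correlated best with its own number, but not every library with JSH-23 did. As all these correlations were small, the numbers were not taken as pairs. With the replicate number as a block, 8, 6 and 2 genes passed for LPS without JSH-23, LPS with it and the interaction, as without the block. Depth limits Gpr34, with at most 9 counts in a library, and widens the intervals of Gpr18 and Gpr171.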

Other observations

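Other Gpr-numbered genes were followed as a list of 59, of which 21 were tested, although not all of them encode receptors. With LPS 5 were higher and 11 lower, beside 31.0% of all genes higher and 34.7% lower, with a median log2 fold change of -0.38 against -0.05 over all genes. Gpr85 rose from 30.3 ± 1.10 to 112.4 ± 1.28 CPM (log2 1.89, adjusted p = 8.56e-16, edgeR) and Gpr146 fell from 16.5 to 2.73 ± 0.488 CPM (log2 -2.60, adjusted p = 3.27e-15).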
